A study of Mus musculus with 6 samples.

Results

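Omp, Eomes, Cdhr1 and Doc2g are 4 genes known from the olfactory system, taken here as a set by their gene names from a table of 51826 genes. They were chosen by their measured levels in the same 6 libraries described here, so their differences between libraries and genotypes are a description and carry no test. The tissue was labelled as mouse paraventricular nucleus (PVN), a hypothalamic cell group with vasopressin, oxytocin and presympathetic neurons, and its messenger RNA was sequenced. KO libraries, 3 in number, came from mice with ADAM17, a membrane protease that sheds cell surface proteins, knocked out in glutamatergic neurons, and WT libraries, also 3, came from wildtype mice. Each genotype had 2 libraries from males (KO 1 and KO 2, WT 1 and WT 2) and 1 from a female (KO F1 and WT F1). The labels give no age, strain, treatment or Cre driver, and do not say whether a library holds 1 animal or a pool, so the spread between libraries may be partly technical.

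Smell reaches the brain through olfactory sensory neurons of the nose, whose axons end in the glomeruli of the olfactory bulb. There they contact mitral and tufted cells, the glutamatergic output neurons of the bulb, which project to the olfactory cortex. Omp encodes olfactory marker protein, a small cytoplasmic protein of mature olfactory sensory neurons, and is thus not a gene of the output neurons. Eomes (Tbr2) encodes a T-box transcription factor that is made by mitral and tufted cells and also by intermediate progenitors of the developing cortex, unipolar brush cells of the cerebellum, and T and natural killer (NK) lymphocytes. Cdhr1 encodes a protocadherin known both from mitral and tufted cells and from photoreceptors, where its loss leads to retinal degeneration. Doc2g encodes the gamma member of the double C2 protein family, whose alpha and beta members bind calcium and act in vesicle release.

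Promoters are shown because the 4 genes share a pattern over the libraries, so that a reader can compare the start regions directly. RefSeq, on build GRCm38.p6, held an entry for 3 of the 4 genes, namely Eomes (chr9:118477939-118478238, plus strand), Cdhr1 (chr14:37098298-37098597, minus strand) and Doc2g (chr19:4003135-4003434, plus strand), each covering 250 bases before to 50 bases after the start of the RefSeq gene, which for all 3 differs from the start in the deposited table. Capitals mark matches, on either strand, to a homeodomain core (TAATT) or a TATA box core (TATAA); a T-box motif (AGGTGTGA) was also searched on both strands.
Eomes: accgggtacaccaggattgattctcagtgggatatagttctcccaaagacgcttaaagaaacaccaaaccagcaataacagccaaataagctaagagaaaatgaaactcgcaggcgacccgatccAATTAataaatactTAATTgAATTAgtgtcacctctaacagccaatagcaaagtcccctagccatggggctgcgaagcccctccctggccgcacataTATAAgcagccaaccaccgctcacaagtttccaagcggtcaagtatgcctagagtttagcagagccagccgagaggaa
Cdhr1: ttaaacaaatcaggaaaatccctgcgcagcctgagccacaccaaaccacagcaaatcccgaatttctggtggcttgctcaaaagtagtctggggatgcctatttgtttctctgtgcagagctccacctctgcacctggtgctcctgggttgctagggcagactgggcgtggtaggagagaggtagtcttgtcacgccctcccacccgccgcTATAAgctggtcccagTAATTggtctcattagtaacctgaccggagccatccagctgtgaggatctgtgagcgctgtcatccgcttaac
Doc2g: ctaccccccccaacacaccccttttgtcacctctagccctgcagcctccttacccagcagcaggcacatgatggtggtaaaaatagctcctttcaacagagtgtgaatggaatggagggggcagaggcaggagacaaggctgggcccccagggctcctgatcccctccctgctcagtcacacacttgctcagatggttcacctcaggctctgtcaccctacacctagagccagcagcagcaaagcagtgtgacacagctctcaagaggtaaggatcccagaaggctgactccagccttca

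The Eomes sequence held the homeodomain core at 125, 111 and 105 bases upstream of the start and the TATA core at 28 bases upstream. The Cdhr1 sequence held the homeodomain core at 23 and the TATA core at 39 bases upstream. Neither core was found in these letters for Doc2g, and the T-box motif was in none of the 3 windows. Over 32851 RefSeq promoters of the same length, 27% held the homeodomain core, 24.9% the TATA core and 1.28% the T-box motif. The GC content was 47.3% for Eomes, 54.0% for Cdhr1 and 57.0% for Doc2g, beside a median of 52.7% over all promoters.

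The libraries held between 35114426 and 54421330 counts, and 3 counts, the least used here as a floor, corresponded to 0.051 to 0.104 CPM (counts relative to the library size, with TMM scaling). Mitochondrially encoded genes took 20.63% of the counts in KO 1, against 7.22% to 9.2% in the other libraries. Adam17 itself stood at 15.4, 14.6 and 13.9 CPM in KO 1, KO 2 and KO F1, against 17.1, 17.2 and 15.6 CPM in WT 1, WT 2 and WT F1. Its log2 fold change, KO minus WT, was −0.19 (SE 0.11) which edgeR did not call (adjusted p = 0.747). These values cover the whole gene and all cells of the tissue, and the labels do not name the deleted exon.

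Omp (ENSMUSG00000074006) is a gene of 1 exon block on chromosome 7, 98143359 to 98145502, minus strand, as the deposited table gives it. It had 66, 182 and 12 counts in KO 1, KO 2 and KO F1, against 10, 19 and 12 counts in WT 1, WT 2 and WT F1. In CPM this was 2.29, 4.07 and 0.294 in the KO libraries, against 0.221, 0.448 and 0.204 in the WT libraries. Both male KO libraries lay above every other library, and the female KO library lay among the WT libraries, so the genotypes overlapped. The lower male KO library was 5.12 times the highest WT library. The mean was 2.22 ± 1.89 CPM in KO and 0.291 ± 0.136 CPM in WT (SD, n = 3 each), and the fitted log2 fold change, with genotype and sex as terms, was 2.52 (SE 0.64). In bulk tissue, more cells of a type and more RNA per cell cannot be told apart.

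Eomes (ENSMUSG00000032446; chromosome 9, 118478212 to 118486132, plus strand) had 263, 173 and 50 counts in KO 1, KO 2 and KO F1, against 60, 27 and 39 counts in WT 1, WT 2 and WT F1. These were 9.14, 3.87 and 1.23 CPM in the KO libraries, against 1.33, 0.636 and 0.662 CPM in the WT libraries. The male KO libraries were again the highest, the female KO library lay just under WT 1, and the genotypes overlapped. The mean was 4.74 ± 4.03 CPM in KO and 0.875 ± 0.391 CPM in WT (SD, n = 3 each), with a log2 fold change of 2.15 (SE 0.56). In CPM, KO 1 and KO 2 differed in opposite directions for these transcripts, Eomes being 2.36 times as high in KO 1 as in KO 2 and Omp 0.564 times as high. The size of such ratios depends on the scaling of KO 1.

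Cdhr1 (ENSMUSG00000021803; chromosome 14, 37077850 to 37098311, minus strand) was the most abundant of the 4 genes. It had 1622, 1909 and 1225 counts in KO 1, KO 2 and KO F1, against 558, 367 and 1362 counts in WT 1, WT 2 and WT F1. In CPM the KO libraries held 56.4, 42.7 and 30.02, against 12.3, 8.65 and 23.1 in the WT libraries. Every KO library lay above every WT library, and the female WT library stood above both male WT libraries. The mean was 43.01 ± 13.2 CPM in KO and 14.7 ± 7.53 CPM in WT (SD, n = 3 each), with a log2 fold change of 1.63 (SE 0.43).

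Doc2g (ENSMUSG00000024871; chromosome 19, 4003321 to 4007005, plus strand) had 286, 354 and 85 counts in KO 1, KO 2 and KO F1, against 127, 97 and 120 counts in WT 1, WT 2 and WT F1. These were 9.94, 7.91 and 2.08 CPM in the KO libraries, against 2.81, 2.29 and 2.04 CPM in the WT libraries. The male KO libraries stood apart, while the female KO library was close to the female WT library. The mean was 6.64 ± 4.08 CPM in KO and 2.38 ± 0.392 CPM in WT (SD, n = 3 each), with a log2 fold change of 1.25 (SE 0.38). The Doc2g counts are uncertain, because 1926 of its exon bases (63.5%) are shared with the gene model Gm49405 on the same strand. Gm49405 itself stood at 3.34 CPM in KO and 3.02 CPM in WT, a log2 fold change of 0.13.

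**Figure D1:**
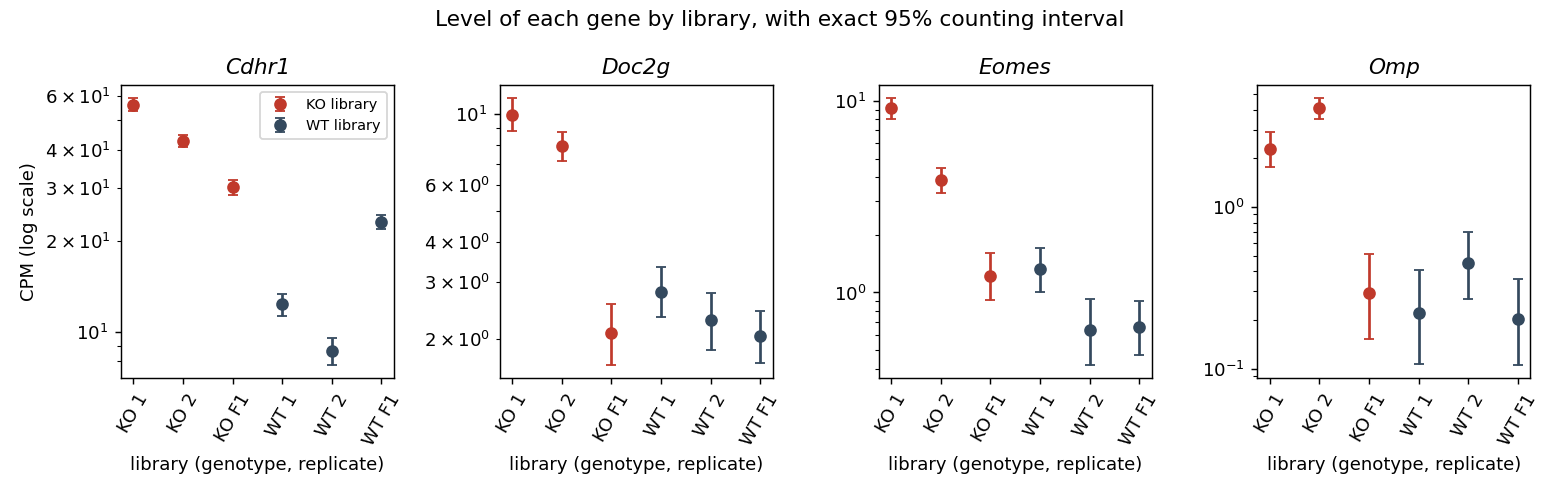
Level of each gene in each library, in CPM on a log axis with its own range per panel; points are libraries (KO in red, WT in dark blue) and bars are exact 95% Poisson intervals, which cover counting error only. KO 1 and KO 2 lie above the other 4 libraries in every panel, KO F1 lies within the WT range for Omp, Eomes and Doc2g, and for Cdhr1 it stands at 30.02 CPM, above WT F1 at 23.1 CPM.

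All 4 genes passed the filter on low counts, and all had a log2 fold change above 0, beside 49.4% of the 18956 genes tested, whose median was −0.004. Both male KO libraries lay above the other 4 libraries for 4 of the 4 genes; that order held for 12.6% of all genes. Every KO library lay above every WT library for 1 of the 4, Cdhr1, and for 6.61% of all genes. With edgeR's quasi-likelihood test and Benjamini-Hochberg adjustment over all genes, 0 of the 4 were called, beside 0.00528% of all genes (1 gene). At an unadjusted p under 0.05 edgeR gave 4 of the 4, beside 6.38% of all genes (1210), and DESeq2 with adjustment called 3 of the 4, Omp, Eomes and Cdhr1, beside 0.403% (75 of 18588). Because these libraries chose the genes, nothing is read from those counts.

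Among males, the mean over KO 1 and KO 2 was 9.52 times that over WT 1 and WT 2 for Omp, 6.63 times for Eomes, 4.72 times for Cdhr1 and 3.51 times for Doc2g. Between the female libraries, KO F1 over WT F1, the ratio was 1.44 for Omp, 1.85 for Eomes, 1.30 for Cdhr1 and 1.02 for Doc2g. The order of the genes by male ratio was thus not their order by female ratio, where Eomes came highest and Cdhr1 and Omp lay close to each other. The interaction of genotype and sex was below 0 on the log2 scale for all 4, at −2.73 (SE 0.95) for Omp, −1.83 (SE 0.95) for Eomes, −1.86 (SE 0.40) for Cdhr1 and −1.77 (SE 0.42) for Doc2g. The edgeR test called 0 of the 4 for the interaction, beside 0.0739% of all genes (14), and with 1 female library per genotype that contrast rests on single libraries. The female minus male log2 difference, with genotype in the fit, was −2.12 (SE 0.74) for Omp, −1.47 (SE 0.62) for Eomes and −1.14 (SE 0.42) for Doc2g. For Cdhr1 it was 0.30 (SE 0.44), the only one of the 4 above 0. That value averages opposite directions, since KO F1 lay below both male KO libraries and WT F1 above both male WT libraries. For Omp, Eomes and Doc2g, KO F1 lay far below the male KO libraries, and WT F1 lay below or within the range of the male WT libraries. The term thus does not describe a sex difference shared by the genotypes.

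**Figure D2:**
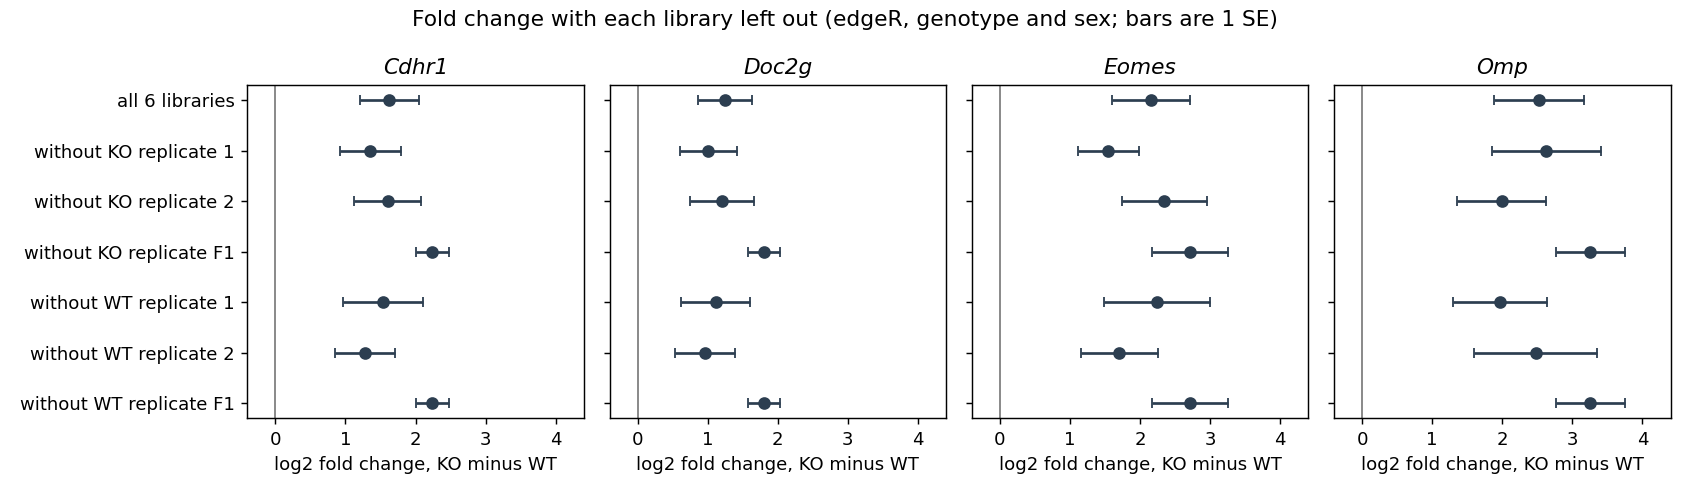
Log2 fold change, KO minus WT, of each gene from edgeR with genotype and sex as terms, over all 6 libraries and with each library left out in turn; bars are 1 SE. Every value lies above 0, and leaving out either female library gives the contrast of the males, with Cdhr1 at 2.24 against 1.63 over all 6 libraries.

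Levels of different genes were compared per length, in TPM, a length-normalised share of all transcripts, within a library. Cdhr1 stood at 19.3, 21.02 and 15.9 TPM in KO 1, KO 2 and KO F1, against 6.73, 4.69 and 12.8 TPM in WT 1, WT 2 and WT F1. Doc2g followed at 9.70, 11.3 and 3.21 TPM in the KO libraries, against 4.49, 3.61 and 3.21 TPM in the WT libraries. Eomes stood at 4.10, 2.52 and 0.853 TPM in the KO libraries, against 1.12, 0.514 and 0.567 TPM in the WT libraries. The order Cdhr1, Doc2g, Eomes held in all 6 libraries. Cdhr1 and Doc2g were lower in KO 1 than in KO 2 in TPM but higher in CPM, while Eomes was higher and Omp lower in KO 1 in both. Omp was the lowest in 5 libraries, at 1.56 and 0.311 TPM in KO 1 and KO F1, against 0.235, 0.480 and 0.221 TPM in WT 1, WT 2 and WT F1, and only in KO 2, at 3.99 TPM, did it exceed Eomes. Over the KO libraries Eomes (2.49 ± 1.63 TPM) and Omp (1.95 ± 1.87 TPM) did not differ beyond their spread (SD, n = 3), whereas Cdhr1 and Doc2g had ranges that did not overlap in either genotype.

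The proportions between the 4 genes were not constant. Omp made up 20.1% of the counts of Omp and Eomes together in KO 1 (exact 95% binomial interval 15.9 to 24.8), 51.3% in KO 2 (45.9 to 56.6) and 19.35% in KO F1 (10.4 to 31.4). In WT it made up 14.3% in WT 1 (7.07 to 24.7), 41.3% in WT 2 (27 to 56.8) and 23.5% in WT F1 (12.8 to 37.5). The intervals of KO 1 and KO 2 did not overlap, nor did those of WT 1 and WT 2, and in each genotype replicate 2 had the highest share. The intervals cover counting error only.

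Doc2g made up 15.0%, 15.6% and 6.49% of the counts of Doc2g and Cdhr1 together in KO 1, KO 2 and KO F1, against 18.5%, 20.9% and 8.10% in WT 1, WT 2 and WT F1. The female library was the lowest of each genotype, with intervals of 5.22 to 7.96% in KO F1 and 6.76 to 9.60% in WT F1. Eomes likewise made up 14.0%, 8.31% and 3.92% of the counts of Eomes and Cdhr1 in KO 1, KO 2 and KO F1, against 9.71%, 6.85% and 2.78% in WT 1, WT 2 and WT F1. In both genotypes Cdhr1 counts were thus high in the female library relative to those of Doc2g and Eomes.

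The genes lie on 4 chromosomes, and adjacent genes gave no fold change as large as theirs. Omp lies inside Capn5, a calpain protease gene on the same strand, and shares 0 exon bases with it. Capn5 stood at 73.2, 79.1 and 61.4 CPM in KO 1, KO 2 and KO F1, against 57.0, 63.3 and 65.8 CPM in WT 1, WT 2 and WT F1, a log2 fold change of 0.20 (SE 0.13) that was not called. Beyond Capn5, Myo7a, an unconventional myosin gene, had a log2 fold change of 0.39 (SE 0.15). Golga4, next to Eomes, had −0.10 (SE 0.10), Ccser2, next to Cdhr1, had 0.16 (SE 0.11), and Ndufv1, which lies 492 bases from Doc2g, had −0.22 (SE 0.15). The antisense model Gm33460 shares 118 exon bases (2.8%) with Eomes, and the strand setting of the counting is not given in the sources used here.

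Tested relatives of Doc2g and Cdhr1 had no fold change as large as theirs. Doc2a stood at 25.1, 31.4 and 31.3 CPM in KO 1, KO 2 and KO F1, against 24.96, 28.5 and 25.8 CPM in WT 1, WT 2 and WT F1 (log2 fold change 0.15, SE 0.13). Doc2b, at −0.15 (SE 0.12), and Rph3a, a related C2 domain protein of synaptic vesicles, at 0.28 (SE 0.11), were not called either. Rph3a stood at 910, 753 and 686 CPM in KO 1, KO 2 and KO F1, against 660, 735 and 544 CPM in WT 1, WT 2 and WT F1. Its male KO libraries thus lay above the other 4 libraries, an order that held for 12.6% of all genes. In TPM, Doc2a averaged 29.5 in KO and 32.8 in WT, and Doc2b 26.3 in KO and 34.9 in WT, so both were more abundant than Doc2g. On log2(TPM + 1) the median log2 fold change of all genes was −0.24. Cdhr2, Cdhr3 and Cdhr4 had log2 fold changes of −0.81 (SE 0.55), −0.01 (SE 0.23) and −0.30 (SE 0.47) at means under 2 CPM in both genotypes. Cdhr5 had 2 counts, both in KO 1, and was not tested. Of these 7 tested genes, Capn5 included, 3 had a log2 fold change above 0, beside 49.4% of all genes. By edgeR 0 were called, beside 0.00528% of all genes.

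Other genes of mitral and tufted cells were described by a list of 9. Of these, all tested, 6 had a log2 fold change above 0, beside 49.4% of all genes. By edgeR 0 were called and by DESeq2 0, beside 0.00528% and 0.403% of all genes. With so few calls over all genes, 0 calls in a short list says nothing about that list, here or below. The median was 0.10, turning to −0.18 on log2(TPM + 1), where the median of all genes was −0.24. Summed over the list, the KO libraries held 1153 to 1442 CPM, against 1076 to 1195 CPM in the WT libraries. Slc17a7, the vesicular glutamate transporter of cortical and bulb output neurons, was the most abundant at 662, 1019 and 794 CPM in KO 1, KO 2 and KO F1, against 772, 823 and 672 CPM in WT 1, WT 2 and WT F1. Its log2 fold change was 0.13 (SE 0.17), beside 0.43 (SE 0.19) for Tbr1, a T-box factor of cortical and mitral neurons, 0.10 (SE 0.19) for Reln, which encodes reelin, and 0.11 (SE 0.16) for Kctd12, an auxiliary subunit of GABA-B receptors. All 4 are also made outside the bulb.

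Tbx21 (T-bet), singled out after its values were seen because within the forebrain it is known as a marker of mitral and tufted cells, had 66, 30 and 4 counts in KO 1, KO 2 and KO F1, against 23, 15 and 5 counts in WT 1, WT 2 and WT F1. That was 2.29, 0.671 and 0.0980 CPM in the KO libraries, against 0.508, 0.353 and 0.0849 CPM in the WT libraries. KO 1 was the highest library and both female libraries were the lowest. Other transcription factors of the list lay below 0, with Lhx1 at −0.19 (SE 1.02), Lhx5 at −0.52 (SE 0.49) and Barhl2 at −0.065 (SE 0.53), while Tbr1 lay above 0. For Lhx1 and Lhx5, KO 2 was the lowest library, at 0.671 and 0.648 CPM. The Tbx21 log2 fold change of 1.46 (SE 0.61) was not called (edgeR adjusted p = 0.735). T-bet is also a lymphocyte factor. On the list of T and NK lymphocyte genes 0 of 7 had enough counts to be tested, Cd3d and Ncr1 were at 0 in every library, and the summed level was 0.0695 to 0.492 CPM in KO and 0.272 to 0.817 CPM in WT.

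Genes of the olfactory sensory neuron, the cell type Omp marks, made up a list of 13. Of 13, 12 were tested, 6 had a log2 fold change above 0, beside 49.4% of all genes, and the median was −0.03. By either tool 0 were called, beside 0.00528% of all genes by edgeR and 0.403% by DESeq2. The sum was 492 to 556 CPM in KO and 381 to 558 CPM in WT, most of it Gnal, a G protein alpha subunit also made in the striatum, with a log2 fold change of 0.24 (SE 0.15). Gng13, a G protein gamma subunit, had −0.25 (SE 0.20), Adcy3, the olfactory adenylyl cyclase that is also made in neuronal cilia, −0.30 (SE 0.13), and Ano2, a calcium-activated chloride channel, 0.12 (SE 0.26).

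S100a5, a calcium-binding protein gene known from olfactory sensory neurons and singled out after its values were seen, did not pass the filter on low counts. It had 32, 42 and 0 counts in KO 1, KO 2 and KO F1, against 5, 4 and 0 counts in WT 1, WT 2 and WT F1. Only the male libraries had counts, and the male KO libraries had the most. Cngb1, of the same list, went the other way. It stood at 0.938, 0.693 and 1.45 CPM in KO 1, KO 2 and KO F1, against 3.40, 1.32 and 2.06 CPM in WT 1, WT 2 and WT F1 (log2 fold change −1.18, SE 0.44, not called). Of 1359 olfactory receptor genes, 85, 96 and 83 had a count in KO 1, KO 2 and KO F1, against 92, 80 and 97 in WT 1, WT 2 and WT F1. Together they amounted to 20.2, 19.8 and 17.9 CPM in the KO libraries, against 19.3, 19.6 and 17 CPM in the WT libraries, and 31.3% of these counts came from Olfr287. The receptor sum thus did not set KO 1 and KO 2 apart from WT 1 and WT 2, unlike Omp and S100a5.

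Interneurons of the bulb, granule and periglomerular cells, were described by 11 genes. Of these 9 had a log2 fold change above 0, beside 49.4% of all genes, with a median of 0.36. edgeR called 0, and DESeq2 called 1, Sp8, beside 0.403% of all genes. Sp8, a zinc finger factor of bulb and cortical interneurons, stood at 7.51, 5.19 and 4.09 CPM in KO 1, KO 2 and KO F1, against 3.58, 3.58 and 1.77 CPM in WT 1, WT 2 and WT F1, a log2 fold change of 0.95 (SE 0.21; DESeq2 adjusted p = 0.0466, edgeR adjusted p = 0.735). Every KO library lay above every WT library for Sp8. The most abundant genes of the list were Meis2, a homeodomain factor, at 0.38 (SE 0.23), Calb2, which encodes calretinin, at −0.16 (SE 0.35), Etv1, an ETS factor, at 0.12 (SE 0.22), and Tshz1, a zinc finger factor, at 0.36 (SE 0.13). In mean TPM the list was mixed, and fewer of its genes were higher in KO than by fold change. On log2(TPM + 1) the median log2 fold change of all genes was itself −0.24, against −0.004 in the main fit. A lower TPM in KO is thus not particular to this list. Meis2 averaged 128.2 TPM in KO and 126.3 in WT, and Tshz1 21.15 in KO and 20.38 in WT. Calb2 averaged 79.7 TPM in KO and 121.6 in WT, and Etv1 45.35 in KO and 51.46 in WT. Summed levels were 410 to 550 CPM in KO, highest in KO 1, and 409 to 425 CPM in WT.

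Migrating neuroblasts, which supply new interneurons to the bulb, had 2 of 5 genes above 0, a median of −0.06 and 0 calls, with Nrep at −0.22 (SE 0.14), Cd24a at −0.06 (SE 0.18), Dcx at 0.43 (SE 0.16) and Sox11 at 0.22 (SE 0.14). Olfactory ensheathing glia, which wrap the sensory axons, had 4 of 7 genes above 0, a median of 0.02 and 0 calls, with Npy at 0.45 (SE 0.13), Fabp7 at −0.21 (SE 0.19), Sox10 at 0.15 (SE 0.13) and Frzb at 0.02 (SE 0.25). Their sums were 102 to 128 CPM in KO and 105 to 115 CPM in WT for neuroblasts, and 169 to 213 CPM in KO and 163 to 189 CPM in WT for ensheathing glia. Over all genes, 49.4% were above 0 and edgeR called 0.00528%.

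Markers of cortical excitatory neurons made up a list of 9. All 9 had a log2 fold change above 0, beside 49.4% of all genes, with a median of 0.33. In mean TPM 7 of the 9 were higher in KO than in WT, while the median log2 fold change of all genes on log2(TPM + 1) was −0.24. By edgeR and DESeq2 0 were called, beside 0.00528% and 0.403% of all genes. The sum was 692, 608 and 539 CPM in KO 1, KO 2 and KO F1, against 551, 545 and 373 CPM in WT 1, WT 2 and WT F1, so that KO F1 lay just under the male WT libraries. Neurod6 and Neurod2, basic helix-loop-helix factors of cortical projection neurons, had 0.44 (SE 0.13) and 0.34 (SE 0.11), Rtn4r, the Nogo receptor, 0.31 (SE 0.16), and Bcl11b (Ctip2), a zinc finger factor of deep-layer neurons, 0.33 (SE 0.14). Cortical markers were thus high in the libraries in which the 4 olfactory genes were high, and their part in those levels was not tested.

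The cerebellar list was high by its sum in KO 1 and WT F1, but not every gene of it was. Of these libraries only KO 1 was high for the 4 olfactory genes. Cbln1 had 19.2 CPM in KO 1, its lowest library, against 42.35 CPM in WT F1, its highest. Cbln3, a granule cell gene, stood at 33.5, 0.425 and 0.294 CPM in KO 1, KO 2 and KO F1, against 0.530, 2.14 and 65.5 CPM in WT 1, WT 2 and WT F1. Pcp2, a Purkinje cell gene, stood at 9.55, 0.358 and 0.221 CPM in the KO libraries, against 0.265, 0.518 and 21.2 CPM in the WT libraries. Over the 9 genes the sum was 140 CPM in KO 1, against 239 CPM in WT F1 and 38.1 to 43.4 CPM in the other 4 libraries. Of the list 5 genes had a log2 fold change above 0, beside 49.4% of all genes, and the median was 0.61. By edgeR 0 were called, beside 0.00528% of all genes, and by DESeq2 0, beside 0.403%. Cbln1 had −0.36 (SE 0.19) and Neurod1 0.61 (SE 0.83).

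KO 2, with high Omp, Eomes, Cdhr1 and Doc2g, had low levels of Cbln3 and Pcp2, and WT F1, with the highest cerebellar sum, had Omp, Eomes and Doc2g at 0.204, 0.662 and 2.04 CPM, each within or below the range of the male WT libraries, and Cdhr1 at 23.1 CPM, above both of them. Lmx1a, a marker of unipolar brush cells, lay between 0.196 and 0.291 CPM in KO and between 0.353 and 0.832 CPM in WT. Without KO 1 and WT F1, an alternative chosen after seeing the data and fitted without sex, the log2 fold changes were 2.71 for Omp, 1.38 for Eomes, 1.80 for Cdhr1 and 0.98 for Doc2g.

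Photoreceptor and pineal genes, listed because Cdhr1 is known from photoreceptors, were low. Of 7 genes 3 were tested, 1 had a log2 fold change above 0, beside 49.4% of all genes, and the median was −0.03. Crx, the defining transcription factor of these cells, had 0 counts in every library, which allows up to 0.051 to 0.104 CPM per library. The sum was 1.91 to 3.26 CPM in KO and 2.23 to 2.496 CPM in WT, and Sag, the retinal arrestin, had the highest mean TPM of the list. Gnat1, rod transducin, stood at 0.730, 0.447 and 0.392 CPM in KO 1, KO 2 and KO F1, against 0.155, 0.188 and 0.204 CPM in WT 1, WT 2 and WT F1, with a log2 fold change of 1.46 (SE 0.43) that was not called.

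**Figure D3:**
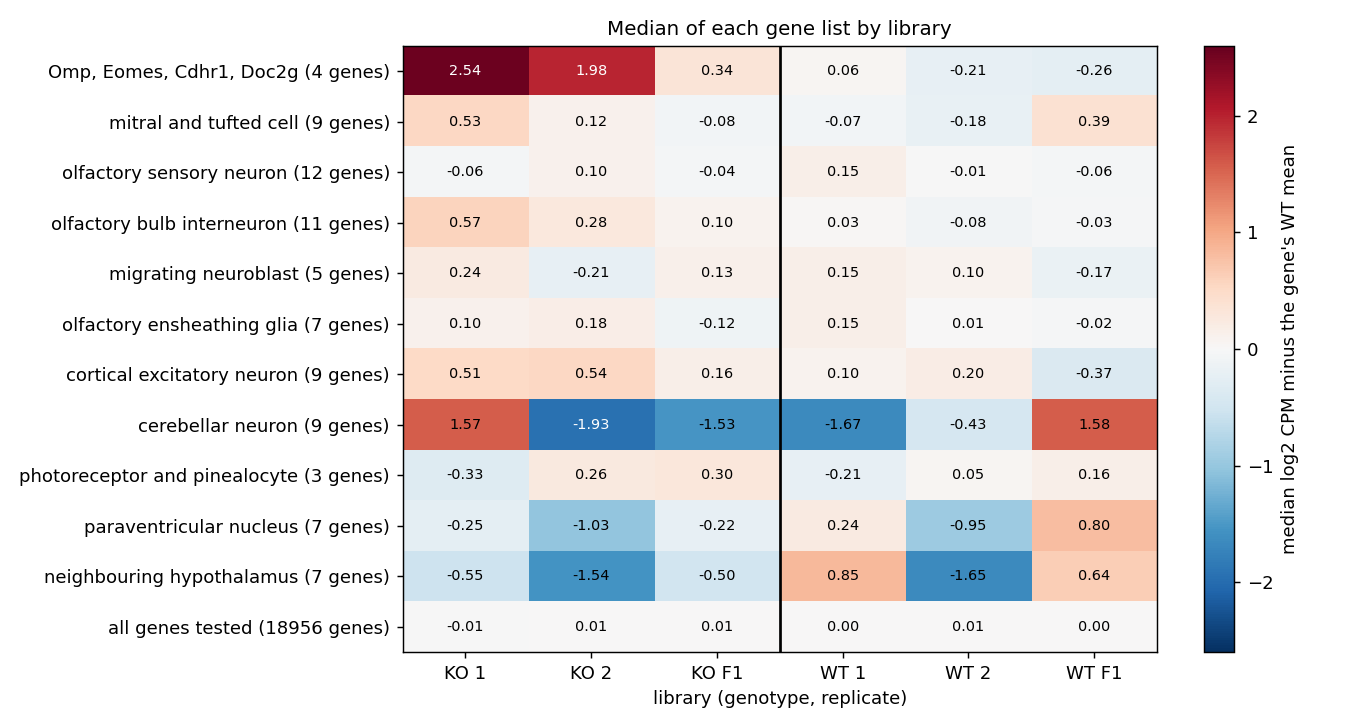
Median over each gene list of log2 CPM minus the gene's mean over the WT libraries, by library, with KO libraries left of the line and WT libraries right of it; red is above and blue below the WT mean. The 4 olfactory genes have 2.55 in KO 1 and 1.98 in KO 2, the cerebellar list is high in KO 1 and WT F1, and the olfactory sensory neuron list lies between −0.06 and 0.15 in all 6 libraries.

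The labelled nucleus was checked against its markers. Avp (vasopressin) stood at 5.25, 8.34 and 13.8 CPM in KO 1, KO 2 and KO F1, against 27.7, 5.96 and 38.2 CPM in WT 1, WT 2 and WT F1, a log2 fold change of −1.36 (SE 0.56) that was not called. Oxt (oxytocin) stood at 8.27, 4.001 and 15.2 CPM in the KO libraries, against 24.8, 5.75 and 27.6 CPM in the WT libraries, with −1.17 (SE 0.58). Sim1, the transcription factor that specifies these neurons, lay between 0.626 and 1.10 CPM in KO and between 0.683 and 2.51 CPM in WT. Otp had −0.42 (SE 0.76), Pou3f2 0.23 (SE 0.22), Crh 0.17 (SE 0.14), Trh −0.25 (SE 0.36) and Sim1 −0.59 (SE 0.38).

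Markers of the PVN were thus detected in every library, with 2 of 7 above 0, a median of −0.42 and 0 calls, and the sum was 61.7 to 86.7 CPM in KO and 63.7 to 130 CPM in WT. Markers of neighbouring hypothalamus had 1 of 7 above 0, a median of −1.13 and 0 calls, with sums of 40.4 to 66.9 CPM in KO and 41.3 to 89.2 CPM in WT. Over all genes, 49.4% were above 0, the median was −0.004 and edgeR called 0.00528%. KO 2 and WT 2 had the lowest sums of both lists. Of these libraries, KO 2 was high for the 4 olfactory genes and WT 2 was not, and the part of the dissected area in their levels was not tested.

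Genes with the pattern most like that of Omp, Eomes, Cdhr1 and Doc2g were ranked by Pearson's r over the 6 libraries between each gene's log2 CPM and the mean of the 4. Among 749 named genes that averaged 0.5 CPM or more and had a comparable spread, 13 had r above 0.9. Of the unnamed genes that met the same limits, which the 749 leave out, 4 had r above 0.9. With 6 points that fall into 2 high and 4 low libraries, r describes the likeness and nothing more. Within the set itself, r with the mean was 0.98 for Doc2g, 0.96 for Eomes, 0.94 for Omp and 0.84 for Cdhr1.

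Scgn, which encodes secretagogin, a calcium-binding protein of bulb interneurons and some hypothalamic neurons, came closest with r of 0.98. It stood at 3.13, 3.04 and 0.833 CPM in KO 1, KO 2 and KO F1, against 0.972, 0.589 and 0.730 CPM in WT 1, WT 2 and WT F1 (log2 fold change 1.41, SE 0.43). The male KO libraries were high and the female KO library lay among the WT libraries.

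The next genes are not known for olfactory roles. Mfap3, a microfibril-associated protein gene with r of 0.98, stood at 21.9, 23.3 and 4.51 CPM in KO 1, KO 2 and KO F1, against 4.99, 4.88 and 3.89 CPM in WT 1, WT 2 and WT F1, and its log2 fold change was 1.57 (SE 0.41). Xaf1, which encodes a partner of the apoptosis inhibitor XIAP, stood at 24.01, 12.8 and 4.04 CPM in the KO libraries, against 4.26, 4.69 and 3.53 CPM in the WT libraries. Abl1, a tyrosine kinase gene, stood at 58.5, 74.7 and 27.1 CPM in the KO libraries, against 28.9, 29.6 and 28.2 CPM in the WT libraries. In all 3 the male KO libraries stood apart, and for Abl1 the female KO library was the lowest of all.

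Bcl2l2, a cell survival gene of the Bcl2 family, stood at 92.5, 112 and 36.7 CPM in KO 1, KO 2 and KO F1, against 30.3, 42.05 and 37.6 CPM in WT 1, WT 2 and WT F1. Slc39a9, a zinc transporter gene, stood at 51.0, 48.5 and 18.4 CPM in the KO libraries, against 16.3, 19.8 and 21.9 CPM in the WT libraries. Ndufaf4, an assembly factor of respiratory complex I, stood at 34.5, 22.5 and 9.98 CPM in the KO libraries, against 11.2, 13.9 and 11.6 CPM in the WT libraries. For these, as for Abl1, the female KO library was no higher than the female WT library, so the pattern was that of the male KO libraries.

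Adat3, a subunit of a tRNA-editing deaminase, stood at 14.5, 40.3 and 2.18 CPM in KO 1, KO 2 and KO F1, against 2.28, 2.47 and 1.99 CPM in WT 1, WT 2 and WT F1, with a log2 fold change of 2.53 (SE 0.86). Its count is uncertain, since 38.4% of its exon bases are shared with Scamp4 on the same strand, which had a log2 fold change of −1.07 at 20.3 CPM in KO and 35.5 CPM in WT. Samd11, a nuclear protein gene, had 1.23 (SE 0.40) and shares 16.7% of its exon bases with Noc2l, and Exoc3l2, an exocyst-related gene, had 1.24 (SE 0.38). Exoc3l2 was the only one of the 10 with every KO library above every WT library, as for Cdhr1. None of the 10 was called by edgeR (adjusted p = 0.735 for each).

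**Figure D4:**
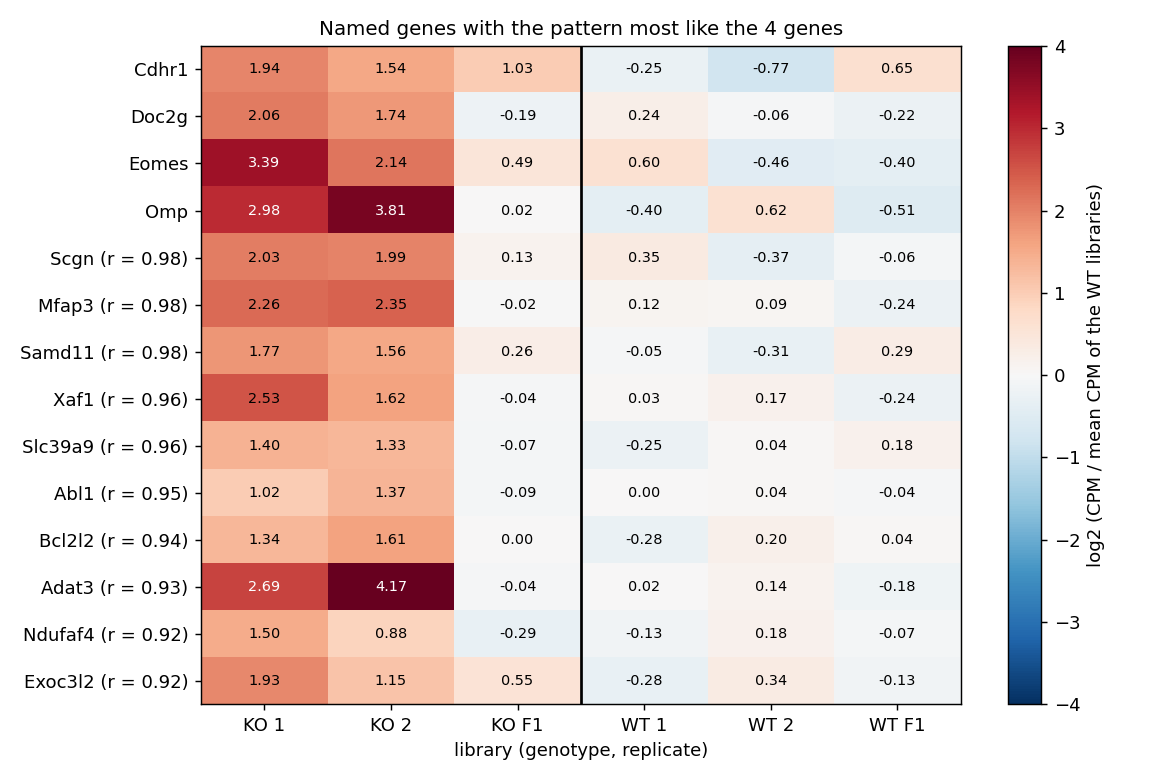
Log2 ratio of each library's CPM to the mean CPM of the WT libraries, for the 4 olfactory genes and the 10 named genes with the pattern most like their mean (r in brackets, over 6 libraries), KO libraries left of the line and WT libraries right of it. KO 1 and KO 2 are red in every row, and KO F1 is above 1 for Cdhr1 alone.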

How the data were processed

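Messenger RNA of 6 libraries was measured by sequencing, 3 per genotype, and libraries were grouped by genotype and sex from the labels. The submitters' processing notes name FastQC 0.11.2, Trimmomatic 0.36 and bedtools 2.26.0. Not given in the sources used here are the aligner, the counter, its strand setting and the genome build. Per the file headers, the authors deposited a count, a TPM and an FPKM value per gene and library. The deposited counts were tested as they stand, the deposited TPM values were used for levels between genes and as an alternative, and the deposited FPKM values, a fixed multiple of TPM in each library, were only checked. Of 51826 gene identifiers 51633 matched GENCODE M21 (GRCm38), 94.1% of them with the same coordinates. Cdhr1 and Doc2g have other ends there, and their exon blocks are those of M21.

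Genes were filtered with filterByExpr by genotype (18956 kept), scaled by TMM and fitted with edgeR 4.0.16 (R 4.3.3, robust quasi-likelihood, terms genotype and sex, Benjamini-Hochberg over all genes, threshold 0.05). Log2 fold changes are KO minus WT. Standard errors are the log2 fold change over the square root of F. DESeq2 1.42.0, limma-trend 3.58.1 on log2(TPM + 1) and log2(TPM + 0.1), other scalings and filters, models without sex or with a replicate block, and leaving out each library were alternatives. Scripts were tested on simulated data. Totals were 35114426, 45355375 and 39455021 counts in KO 1, KO 2 and KO F1, and 42952227, 40652708 and 54421330 in WT 1, WT 2 and WT F1. Intervals cover counting error only, since reads without molecular identifiers are not independent molecules.

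The 4 genes, the lists and the tests were chosen with earlier results of these data known. Named by rule were the 4 genes, the 10 tested genes with a proper name most like their mean by Pearson's r of log2 CPM (prior count 0.5, mean not under 0.5 CPM, SD at least 50% of that of the mean profile), up to 4 genes per list with the highest mean TPM, called genes of a list, and all PVN markers and relatives. Olfactory receptors were only counted and summed. Tbx21, Lhx1, Lhx5, Barhl2, S100a5, Cngb1, Lmx1a, Gnat1 and the adjacent genes were named outside that rule, as was Sp8, which DESeq2 alone called. T and NK lymphocyte genes are given as a sum.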

Additional observations from a re-analysis of the deposited data

How the results depend on the processing

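All 4 genes had a log2 fold change above 0 under each of 21 alternatives, with ranges of 0.97 to 3.47 for Omp, 0.91 to 2.89 for Eomes, 1.22 to 2.24 for Cdhr1 and 0.80 to 1.91 for Doc2g. DESeq2 called 3 of the 4, and each of the other alternatives, with edgeR or limma, called 0. Values on log2(TPM + 1), which understates changes of low genes, were 0.97 for Omp and 0.91 for Eomes. Leaving out 1 library gave 1.28 to 2.24 for Cdhr1, 2.24 without either female library. For the mitral and tufted cell list the median was −0.18 on log2(TPM + 1) and −0.18 on log2(TPM + 0.1), against 0.10, and leaving out 1 library gave −0.033 to 0.40. The median of the olfactory sensory neuron list was −0.21 with library totals and −0.23 on log2(TPM + 0.1), against −0.03, and leaving out 1 library gave −0.14 to 0.17. These settings also moved the median of all genes, to −0.17 with library totals, −0.24 on log2(TPM + 1) and −0.29 on log2(TPM + 0.1). The direction of both lists is thus not fixed. Genes called over the whole table numbered 1, against 4 with no filter, 75 with DESeq2, 3 with no sex term, 4 on log2(TPM + 1), 5 on log2(TPM + 0.1) and 27 without KO 1 and WT F1 (chosen after seeing the data). Leaving out 1 library gave 0 to 20, with 7 without KO 1, 0 without KO 2, 15 without KO F1, 0 without WT 1 or WT 2 and 20 without WT F1. The cause was not tested. Replicate numbers are shared between the genotypes, and deviations of same-numbered libraries correlated at −0.04, 0.03 and 0.03 over all genes tested. Such a correlation can miss a factor that acts on few genes, so it does not decide whether same-numbered libraries were handled together. KO 2 and WT 2 were both lowest for the PVN and neighbouring hypothalamus sums. The main fit did not pair the samples. A fit with the replicate block called 0 genes and gave 2.51 for Omp, 2.13 for Eomes, 1.63 for Cdhr1 and 1.25 for Doc2g. Counts of 10 to 19 for Omp in WT limit its ratios.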
